A study of Sus scrofa with 16 samples.

Results

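The miR-200 family is a group of 5 microRNAs, miR-200a, miR-200b, miR-200c, miR-141 and miR-429, that are found mainly in epithelial cells. It was followed here in endometrium, which lines the uterus, taken from 15 sows fed oestradiol-17β or its carrier alone in early pregnancy. The members were chosen by name, with earlier results of these data known, and their sequences were read from the most abundant matching reads. Reads of 20 to 26 nt were assigned to a member when their first 20 nt equalled its mature 3p arm, the strand of the hairpin that gives most of the mature microRNA, and the 5p arms were counted beside them. The 10 arms held 2461995 of the 92411446 reads of 18 to 26 nt, and 9 of the arms were among the 11123 groups of reads with a shared 18-nt start that could be tested across the whole data set.

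Small RNA was sequenced on day 10 of pregnancy. The treated sows had received oestradiol orally, per kg body weight and day, since insemination. The control group of 4 sows received the ethanol carrier alone. The treated groups held 3 sows at 0.05 µg, 4 sows at 10 µg and 4 sows at 1000 µg. All sows were pregnant, and the tissue was whole endometrium, which holds luminal and glandular epithelium, stroma, vessels and blood cells. In such bulk tissue a smaller number of epithelial cells and less of a microRNA per cell cannot be told apart. One sow of the 0.05 µg group, sow 7, was extracted 2 times, and its 2 libraries were summed into 1 replicate.

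A mature microRNA recognises its target messenger RNAs mainly through its seed, the bases at positions 2 to 8. The miR-200 family is known for holding epithelial cells in their epithelial state: its members bind the messenger RNAs of ZEB1 and ZEB2, which repress the gene of the adhesion protein E-cadherin, and these repressors in turn hold down the family's own genes. The family comes from 2 genomic clusters, one with miR-200b, miR-200a and miR-429 and one with miR-200c and miR-141, and each cluster holds members of both seed groups. Of the 5 hairpin genes, MIR429 is listed in the RefSeq pig gene table of assembly Sscrofa11.1, beside TTLL10.

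The 3p arms fell into 2 seed groups that differed by a single base of the seed. The most abundant read of each member is shown because the assignment rests on these bases, with the seed in capitals and written 5′ to 3′ with T as in the deposited reads. Members with the seed AATACTG, shared by miR-200b, miR-200c and miR-429, were the following.
miR-200b-3p: tAATACTGcctggtaatgatga
miR-200c-3p: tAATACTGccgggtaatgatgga
miR-429-3p: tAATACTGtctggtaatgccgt
Members with the seed AACACTG, shared by miR-200a and miR-141, were the following.
miR-200a-3p: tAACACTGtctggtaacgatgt
miR-141-3p: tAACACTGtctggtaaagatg

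Counted from the 5′ end of the read, miR-200b and miR-200c differed in their first 20 nt by T11G alone, with the base of miR-200b first. In the same notation, miR-200a and miR-141 differed by C17A alone. The remaining pairs differed at 3 or 4 of the 20 positions. Both members of each 1-base pair lie in different genomic clusters, so these pairs set how well the clusters can be told apart. At position 11 of the miR-200b and miR-200c reads, the 2 bases that belong to neither member made up 0.0663% (A) and 0.119% (C) of the reads. At position 17 of the miR-200a and miR-141 reads they made up 0.0825% (T) and 0.0178% (G). The rarer member of that pair, miR-141, had 27795 reads against 1001178 of miR-200a, while 850 reads had T and 183 had G at that position.

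The 5p arms, the partner strands of the same hairpins, were read from the same libraries and are shown because they were counted apart from the closely similar 3p arms.
miR-200a-5p: cATCTTACcggacagtgctgga
miR-200b-5p: cATCTTACtgggcagcattgga
miR-429-5p: gTCTTACCaggcacagttaga
miR-141-5p: cATCTTCCagcacagtgttgga
miR-200c-5p: cGTCTTACccagcagtgtttgg

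Every 5p read was folded against every 3p read with RNAduplex, and 4 of the 5 had their lowest predicted energy with the 3p arm of their own name. The pairs of equal name reached -25.8 kcal/mol for miR-200a, -22.2 for miR-200b, -22.4 for miR-141 and -24.3 for miR-200c. The exception was the read named miR-429-5p, which reached -17.0 kcal/mol with miR-429-3p and -20.6 with miR-200b-3p. It was read 26 times in all libraries together, so its identity rests on its seed and few reads.

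All 5 members were detected as 3p arms in every sow, 3 of them as abundant and 2 as minor members. Levels are given as RPM, reads per 1000000 reads of 18 to 26 nt of the same sow. Over the 15 sows miR-200a-3p averaged 11500 ± 2008 RPM (SD, n = 15), miR-200b-3p 9223 ± 1124 and miR-200c-3p 5800 ± 841. The minor members were miR-429-3p at 564 ± 55.2 and miR-141-3p at 320 ± 76.5 RPM. The ranges of neighbours in this order overlapped between miR-200a and miR-200b, and between no other neighbours. In the ratio of miR-200a to miR-200b, miR-200a was the higher member in 13 of 15 sows, the exceptions being sows 14 and 15 of the 1000 µg group. Among the 8192 tested groups that were no 1-base variant of a far more abundant one, miR-200a ranked 16th by mean level, miR-200b 19th, miR-200c 25th, miR-429 142nd and miR-141 202nd.

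Together the 5 arms made up 2.66% ± 0.158 of the 18 to 26 nt reads in the control sows (SD, n = 4). The share was 2.68% ± 0.306 at 0.05 µg (n = 3), 2.55% ± 0.325 at 10 µg (n = 4) and 3.05% ± 0.419 at 1000 µg (n = 4). Single sows ran from 2.30% in sow 10 to 3.66% in sow 12, and each dose group overlapped with the control group. The cluster of miR-200b, miR-200a and miR-429 gave 20666 ± 980 RPM in the control group (n = 4) and 23498 ± 3653 at 1000 µg (n = 4). The cluster of miR-200c and miR-141 gave 5947 ± 703 and 7003 ± 763 in the same groups. The ratio of the first cluster sum to the second was 3.501 ± 0.307 in control, 3.46 ± 0.503 at 0.05 µg, 3.67 ± 0.418 at 10 µg and 3.36 ± 0.366 at 1000 µg.

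The depth behind these values was 2736396 to 11797501 reads of 18 to 26 nt per sow. The libraries also differed in the length of their reads, and 3 length classes were drawn from the read lengths: class A with 5.20 to 6.18% of reads of 17 to 19 nt, and of the others class B with 0.976 to 4.75% and class C with 9.41 to 10.18% of reads of 40 nt or more. Classes A and B held 6 sows each and class C 3 sows. Class C held 1 sow of the 0.05 µg group and 2 of the 1000 µg group, and no sow of the control or 10 µg group, so that class and dose group are partly tied. In sow 7 the second library gave 1.07 to 1.20 times the level of the first for the 3p arms. Sow 7 is of class B by its summed reads, with 4.75% of 40 nt or more. Its first library alone had 2.11%, and its second 6.38%, which is past the limit of 5% for class B.

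**Figure D1:**
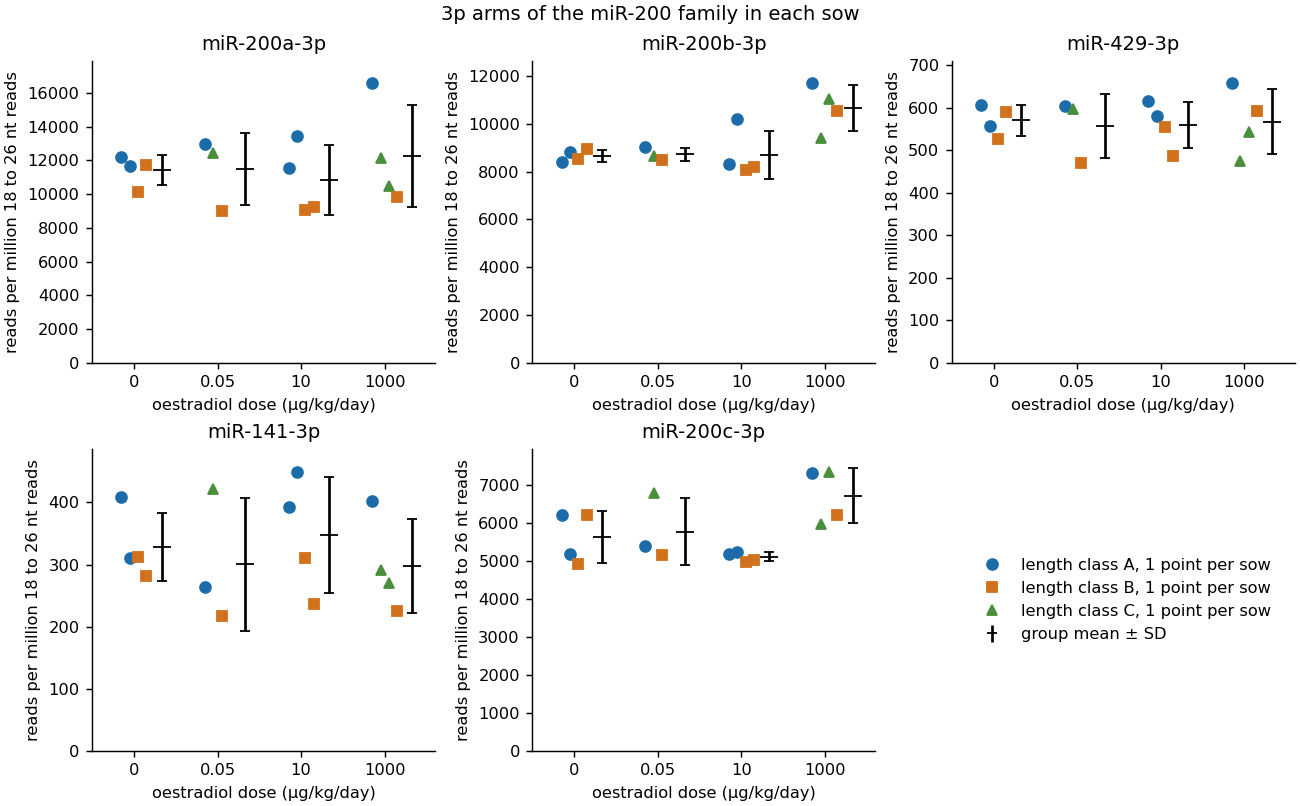
RPM (linear axis from 0) of each 3p arm against the oestradiol dose, 1 point per sow with the symbol and colour giving its length class, and the mean ± SD of the group in black. The 4 sows at 1000 µg lie above every control sow for miR-200b-3p and overlap with the control sows for the other members.

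No member of the family was called at any dose. The test was edgeR's quasi-likelihood test over all 11123 groups, with Benjamini-Hochberg adjustment and a call at an adjusted p under 0.05. It called 0 of 9 tested arms at 0.05 µg, 0 of 9 at 10 µg and 0 of 9 at 1000 µg, against 0% of all groups in each comparison. At an unadjusted p under 0.05 it likewise held 0 of the 9 arms at each dose, against 2% of all groups at 0.05 µg, 2.85% at 10 µg and 3.7% at 1000 µg (222, 317 and 411 groups). The joint test of the 3 doses called 0% of all groups, with 249 groups at an unadjusted p under 0.05, and the trend over dose rank 0%, with 389. DESeq2 called 0 groups in all 5 tests.

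In RPM, miR-200b-3p, the most abundant member with the seed AATACTG, stood at 8389, 8813, 8536 and 8936 in the 4 control sows. It stood at 9028, 8669 and 8480 at 0.05 µg and at 8318, 10215, 8074 and 8191 at 10 µg. At 1000 µg it stood at 11694, 9427, 11037 and 10536. The control sows lay within a narrow band. At 0.05 µg 1 of 3 sows lay above it, and at 10 µg 3 of 4 sows lay below it and 1 above. The 4 sows at 1000 µg all lay above the band, but sow 13 of that group, at 9427, was lower than sow 9 at 10 µg, at 10215. The mean was 8668 ± 250 in control and 10674 ± 957 at 1000 µg (SD, n = 4 each), a log2 difference of 0.30 with a 95% interval of -0.02 to 0.62. In the edgeR fit its adjusted p was 0.9998, with an unadjusted p of 0.0614. At 0.05 µg the log2 difference was 0.01 (-0.33 to 0.35) and at 10 µg 0.00 (-0.31 to 0.32). Over the 3 doses together miR-200b-3p had an adjusted edgeR p of 0.9999. Its slope per step of dose rank was 0.09 on the log2 scale (-0.01 to 0.19; edgeR adjusted p = 0.9999).

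The 5p strand of the same hairpin, miR-200b-5p, was 207 times rarer among the counted reads of all libraries and was counted independently of the 3p arm. In RPM it stood at 38.3, 36.2, 42.5 and 41.4 in the control sows and at 51.0, 43.5, 62.5 and 54.4 at 1000 µg. It stood at 45.1, 41.9 and 43.1 at 0.05 µg and at 40.4, 37.5, 36.9 and 45.9 at 10 µg. The 1000 µg group again did not overlap with the control group, and the 10 µg group did. The log2 difference at 1000 µg was 0.41, with an interval of -0.03 to 0.85. In the edgeR fit its adjusted p was 0.9998, with an unadjusted p of 0.068. Both strands come from the same sows and libraries, so the second is no separate test of the sows.

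Over all tested groups, every sow at 1000 µg lay above every control sow for 1.04% of groups, and below for 1.21%. Of the 9 tested arms, 2 lay above, miR-200b-3p and miR-200b-5p, and 0 below. At 0.05 µg the shares were 1.87% above and 1.31% below, and 1 arm, miR-200b-5p, lay above by its 18-nt group. By the 20-nt count its lowest sow at that dose, 41.9, lay below the highest control sow. At 10 µg the shares were 0.45% above and 0.575% below, with 0 arms in either direction.

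The length classes were set beside this difference because the 1000 µg group holds 2 sows of class C and the control group none. Within class A the 1 sow at 1000 µg had 11694 RPM of miR-200b-3p against 8389 and 8813 in the 2 control sows. Within class B it was 10536 against 8536 and 8936. The order was the same within both classes, with 1 sow at 1000 µg in each. Class C, with 2 sows at 1000 µg, had no control sow, so it allowed no such comparison. The part of the length class in this difference was not tested. Over all alternatives, including the fit with the length class as a covariate, the log2 difference at 1000 µg ran from 0.25 to 0.38. The lowest adjusted p in any of them was 0.849 (edgeR or DESeq2).

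The second member with this seed is miR-200c-3p, which belongs to the other cluster. In RPM it stood at 6210, 5168, 4904 and 6192 in the control sows and at 7303, 5978, 7347 and 6195 at 1000 µg. It stood at 5380, 6769 and 5142 at 0.05 µg and at 5174, 5240, 4975 and 5026 at 10 µg. At 1000 µg sows 12 and 14 were higher than every control sow, while sows 13 and 15 lay within the control range. The log2 difference was 0.25 (-0.09 to 0.60) at 1000 µg, -0.14 (-0.48 to 0.21) at 10 µg and 0.04 (-0.34 to 0.41) at 0.05 µg, with unadjusted edgeR p of 0.14, 0.41 and 0.838 and adjusted p of 0.9998, 0.9999 and 1.

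The rarest member with the seed AATACTG was miR-429-3p. It stood at 607, 557, 526 and 590 RPM in the control sows and at 657, 475, 543 and 592 at 1000 µg. It stood at 604, 598 and 469 at 0.05 µg and at 617, 579, 556 and 486 at 10 µg. All groups overlapped, and the highest and the second-lowest sow of the whole set, sows 12 and 13, were both at 1000 µg. The log2 difference was 0.00 at 1000 µg, with an interval of -0.40 to 0.40.

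The most abundant member, miR-200a-3p, carries the seed AACACTG. It stood at 12178, 11649, 10143 and 11739 RPM in the control sows and at 16570, 12139, 10483 and 9836 at 1000 µg. It stood at 13000, 12461 and 9022 at 0.05 µg and at 11523, 13454, 9081 and 9222 at 10 µg. All groups overlapped, sow 12 at 1000 µg was the highest of the 15 and sow 7 at 0.05 µg the lowest. The log2 difference at 1000 µg was 0.10 (-0.30 to 0.50; edgeR adjusted p = 0.9998), and it was -0.08 when sow 12 was left out.

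The level of miR-200a-3p moved with the length class of the sow. The 6 sows of class A gave 13062 ± 1877 RPM (SD), the 6 of class B 9840 ± 1032 and the 3 of class C 11694 ± 1061. The class B range of 9022 to 11739 and the class A range of 11523 to 16570 overlapped, since sow 4 of class B lay above sows 2 and 8 of class A. For miR-141-3p the classes gave 371 ± 69.6 in A, 264 ± 43.4 in B and 328 ± 81.5 in C. For miR-200b-3p they gave 9409 ± 1312, 8792 ± 906 and 9711 ± 1209. Within class A the sow at 1000 µg had 1.39 times the mean of the 2 control sows for miR-200a-3p, and within class B 0.899 times. The part of the length class in these levels was not tested.

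The second member with the seed AACACTG, miR-141-3p, was the rarest of the 3p arms and, with a coefficient of variation of 23.9% over the 15 sows, the most variable. It stood at 409, 311, 312 and 282 RPM in the control sows and at 402, 292, 271 and 225 at 1000 µg. It stood at 263, 421 and 217 at 0.05 µg and at 393, 450, 311 and 236 at 10 µg. All groups overlapped, and the spread within each group exceeded the differences between their means. The log2 difference was -0.13 (-0.67 to 0.40) at 1000 µg, 0.07 (-0.46 to 0.61) at 10 µg and -0.12 (-0.70 to 0.46) at 0.05 µg (edgeR, adjusted p = 0.9998, 0.9999 and 1).

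**Figure D2:**
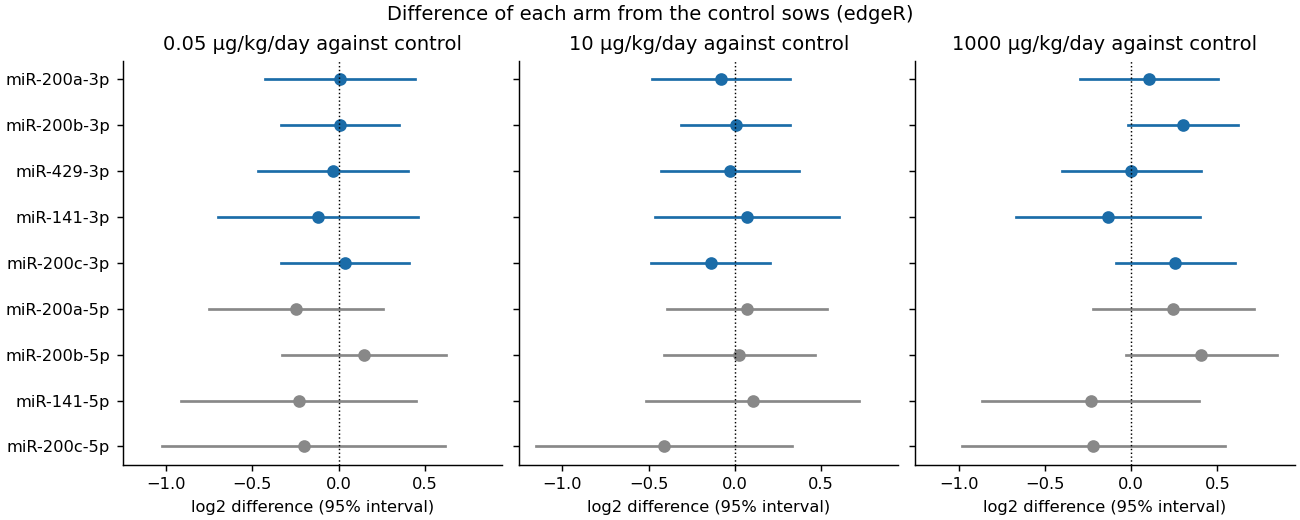
Log2 difference from the 4 control sows with its 95% interval (horizontal axis) for the 9 tested arms, 1 panel per dose, 3p arms in blue and 5p arms in grey. Every interval includes 0, and the interval of miR-200b-3p at 1000 µg, -0.02 to 0.62, lies almost wholly above it.

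Counted over the list, 3 of 5 3p arms had a higher mean than control at 0.05 µg in the edgeR fit, 2 of 5 at 10 µg and 4 of 5 at 1000 µg. Over all tested groups the share with a higher value was 50.5%, 42.7% and 48.4%. The median log2 difference of the 3p arms was 0.01 at 0.05 µg, -0.03 at 10 µg and 0.10 at 1000 µg, and that of all groups 0.00, -0.05 and -0.01. Directions of the smaller differences depended on the scale: with TMM factors miR-200a-3p and miR-429-3p at 10 µg had log2 differences of 0.05 and 0.08 where the 18 to 26 nt total gave -0.08 and -0.03. The intervals for the 3p arms at 1000 µg ran from -0.67 to 0.62 at their extremes.

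The 5p arms of miR-200a, miR-141 and miR-200c had no call at any dose, and that of miR-429 had too few reads to be tested. For miR-200a-5p the control sows had 164, 215, 178 and 224 RPM and the 1000 µg sows 201, 219, 251 and 249. The groups overlapped, with a log2 difference of 0.24 (-0.22 to 0.71; edgeR adjusted p = 0.9998). For miR-141-5p the 15 sows ran from 10.1 to 26.4 RPM, and for miR-200c-5p from 1.19 to 4.79. Neither differed from control at any dose beyond the spread between sows, with log2 differences at 1000 µg of -0.23 (-0.86 to 0.40) and -0.22 (-0.98 to 0.54). For miR-429-5p 4 sows had 0 reads, where a count of 0 allows up to 3 reads, and the highest sow had 0.726 RPM.

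The balance between the strands differed widely between hairpins. Pooled over all libraries there were 19.2 reads of the 3p arm per read of the 5p arm for miR-141, 53.5 for miR-200a, 207 for miR-200b, 1863 for miR-200c and 1971 for miR-429. As shares of both arms, the 5p arm made up 4.95% of the reads of miR-141 (exact 95% binomial interval 4.70 to 5.20%), 1.84% of miR-200a (1.81 to 1.86%), 0.481% of miR-200b (0.4663 to 0.4959%), 0.0536% of miR-200c (0.0475 to 0.0603%) and 0.0507% of miR-429 (0.0331 to 0.0743%). These intervals cover counting error only, since the reads carry no molecular identifiers. Reads that started 1 base later were left out of these counts, and the arms lost unequal shares to this. The later start made up 37.6% for miR-200b-5p against 7.98% for miR-200b-3p, and 16.6% for miR-200a-5p against 1.89% for miR-200a-3p. The ratios of these 2 hairpins are therefore those of the main start alone. The members of one cluster lay far apart in this ratio: miR-141 and miR-200c, which share a cluster, were the hairpin with the largest 5p share and one of the 2 with the smallest.

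**Figure D3:**
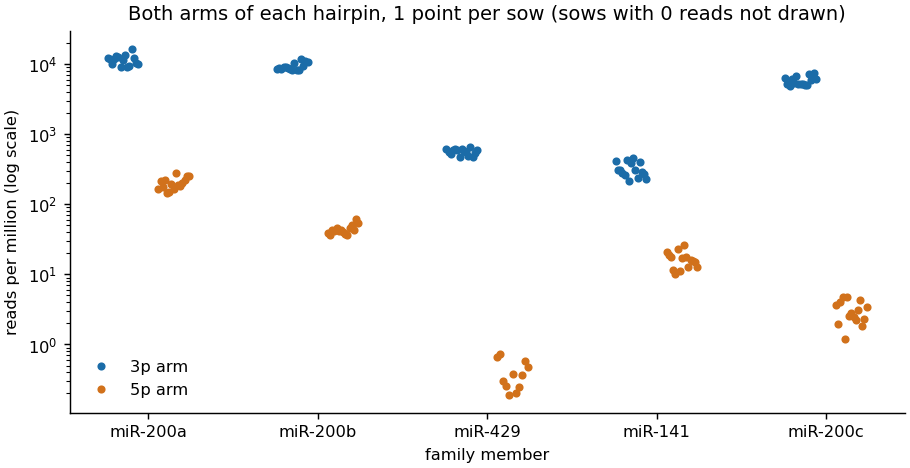
RPM on a log axis for the 3p arm (blue) and the 5p arm (orange) of each hairpin, 1 point per sow. The arms lie closest for miR-141, at 19.2 to 1 over all counted reads, and farthest apart for miR-200c and miR-429.

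The ratio of the strands was steadier over sows for some hairpins than for others. For miR-200b it was 212 ± 24.5 over the 15 sows (SD), a coefficient of variation of 11.6%, and for miR-141 19.9 ± 3.17, or 15.95%. For miR-200a it was 59.4 ± 16.02, or 26.96%. On the log2 RPM scale the strands of miR-141 moved together over the 15 sows (r = 0.837, permutation p = 2.0e-04, adjusted over 4 hairpins 8.0e-04; rho = 0.879, permutation p = 3.0e-05), and r was 0.761 without the 2 sows farthest from the median. The strands of miR-200b had r = 0.680 (permutation p = 0.00639, adjusted 0.0128) and rho = 0.514 (p = 0.0518, adjusted 0.103). For this pair r was 0.410 without the 2 farthest sows, 0.167 with each dose group's mean subtracted and 0.751 with each length class's mean subtracted. For miR-200c r was 0.380 (permutation p = 0.162), with few 5p reads behind it. For the strands of miR-200a, counted in 1001178 and 18727 reads, r was -0.041 (permutation p = 0.887) and rho -0.064.

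The ends of the reads also differed between members. The share of reads at the commonest length was largest for miR-200c-3p, with 68.1% ± 2.21 at 23 nt (SD, n = 15), and for miR-429-3p, with 59.7% ± 2.57 at 22 nt. The reads of miR-200a-3p were split between 22 nt (42.3% ± 2.55) and 23 nt (40.7% ± 2.65). Those of miR-200b-3p were spread over 22, 23 and 24 nt, and those of miR-141-3p over 21, 22 and 23 nt, with 30.7% ± 1.90 at the commonest length.

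**Figure D4:**
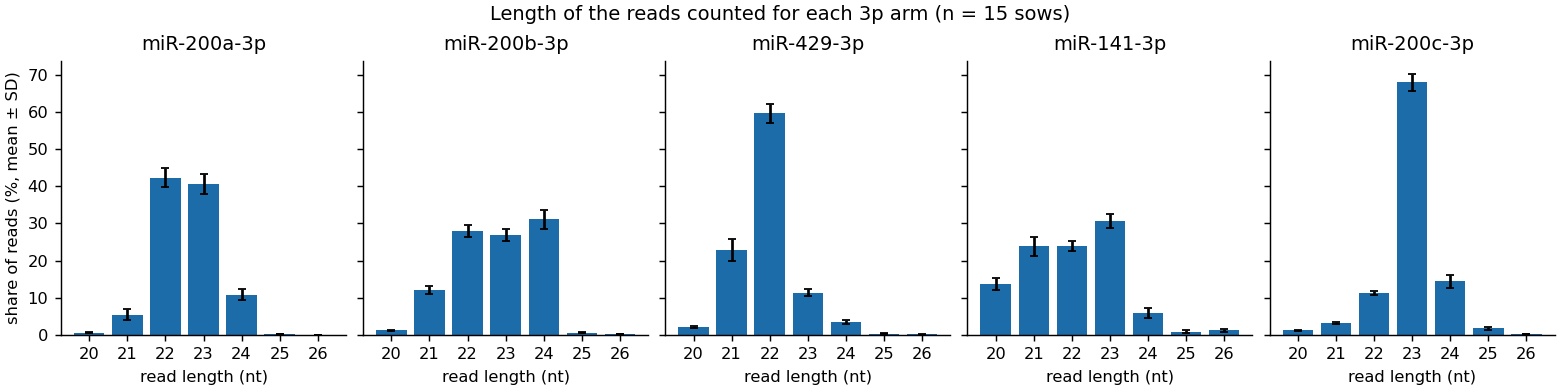
Share of the counted reads of each 3p arm (percent, bars from 0, mean ± SD over 15 sows) at each read length from 20 to 26 nt. The reads of miR-200c-3p are concentrated at 23 nt, whereas those of miR-200b-3p and miR-141-3p are spread over 3 lengths or more.

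The leading reads of miR-200a-3p show how the 3′ end varied, here by single added T, with the seed in capitals.
22 nt, 35.7% of its reads: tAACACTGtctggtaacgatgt
23 nt, 33.6% of its reads: tAACACTGtctggtaacgatgtt
24 nt, 9.0% of its reads: tAACACTGtctggtaacgatgttt
Whether the added bases come from the genome could not be read without a pig genome sequence of the files' build. Over single sows the 22-nt read made up 30.7 to 40.3% and the 23-nt read 30.3 to 38.1%.

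A shifted 5′ end changes the seed, and it was most frequent in miR-200b. Reads that started 1 base later made up 7.98% of miR-200b-3p reads of either start, with 7.19 to 8.68% in single sows. The share was 1.89% for miR-200a-3p, 1.52% for miR-429-3p, 1.16% for miR-141-3p and 1.15% for miR-200c-3p, so the highest share of miR-200a-3p in a single sow, 2.33%, lay below the lowest of miR-200b-3p. The shifted form of miR-200b-3p has the bases ATACTGC at positions 2 to 8 in place of AATACTG, as shown here with these bases in capitals.
miR-200b-3p, 1 base later: aATACTGCctggtaatgatga
On the 5p side the later start made up 37.6% of miR-200b-5p reads (32.9 to 41.7% in single sows) and 16.6% of miR-200a-5p reads (13.3 to 19.8%).

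Over the sows, members of one genomic cluster had a lower mean r than members of different clusters, in the values as measured and in 23 of 24 settings in all. The exception, with each dose group's mean subtracted, gave 0.591 within and 0.537 between clusters. Of the 10 pairs of 3p arms, 4 lie within a cluster and 6 between clusters, and r was taken over the 15 sows on log2(RPM + 1). Within the clusters r was 0.650 for miR-200a and miR-429, 0.507 for miR-200a and miR-200b, 0.324 for miR-200b and miR-429 and 0.199 for miR-141 and miR-200c, with a mean of 0.420. Between the clusters r was 0.687 for miR-200b and miR-200c, 0.674 for miR-200a and miR-141, 0.597 for miR-429 and miR-141, 0.487 for miR-200a and miR-200c, 0.413 for miR-429 and miR-200c and 0.078 for miR-200b and miR-141, with a mean of 0.490. The 2 highest values belonged to the pairs that differ by 1 base of the first 20 and lie in different clusters. With each dose group's mean subtracted, miR-200b with miR-200c had the lowest r of the 10 pairs, 0.360, while miR-200a with miR-141 had the highest, 0.798, and miR-141 with miR-200c rose from 0.199 to 0.585. The settings reuse the same sows and reads, so their count is no separate evidence. The difference between the 2 means was not tested.

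After adjustment over the 10 pairs, 4 pairs had a permutation p under 0.05 for r. These were miR-200a with miR-429 (rho = 0.625), miR-200a with miR-141 (rho = 0.621) and miR-200b with miR-200c (rho = 0.668), each with an adjusted p of 0.0275, and miR-429 with miR-141 (rho = 0.493), with an adjusted p of 0.0483. By rho no pair passed, with a lowest adjusted permutation p of 0.0511. No pair passed by r when sow 7, sow 11 or sow 12 was left out, and 3 to 6 passed without any other single sow. Without the 2 sows farthest from the median of the first-named member, r was 0.412 (p = 0.161), 0.579 (p = 0.0401), 0.343 (p = 0.257) and 0.523 (p = 0.0646) in permutation tests over 13 sows. Of the 4 relations, that of miR-200a with miR-141 alone kept an unadjusted p under 0.05 over 13 sows, without sows 7 and 12. For miR-200a with miR-141 r was 0.236 over the 6 sows of class A and 0.336 over the 6 of class B, against 0.674 over all sows. For miR-200b with miR-200c r was 0.623 in class A and 0.812 in class B, which holds neither of the sows left out for that pair, sows 12 and 14.

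Read against other microRNAs, most of these values as measured were above the middle, and all were below the top. Over the 13530 pairs of 165 well-counted groups with a known microRNA seed, the median r was 0.119 and the 95th percentile 0.695, so all 10 pairs of the family lay below that percentile and 9 lay above the median. With each length class's mean subtracted, the median was 0.0627 and the 95th percentile 0.653. There miR-429 with miR-200c (0.673) and miR-200b with miR-200c (0.668) lay above that percentile. In the same setting miR-141 with miR-200c (0.058) and miR-200b with miR-141 (-0.151) lay below the median. All pairs share libraries and the same total per library. No such percentiles were taken with the other scales. The calls depended on the scale: with TMM factors, which ran from 0.747 to 1.24, all 10 pairs passed, with r from 0.659 to 0.909 and means of 0.777 within and 0.791 between clusters. Scaled by the reads with a listed seed, 1 pair passed.

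**Figure D5:**
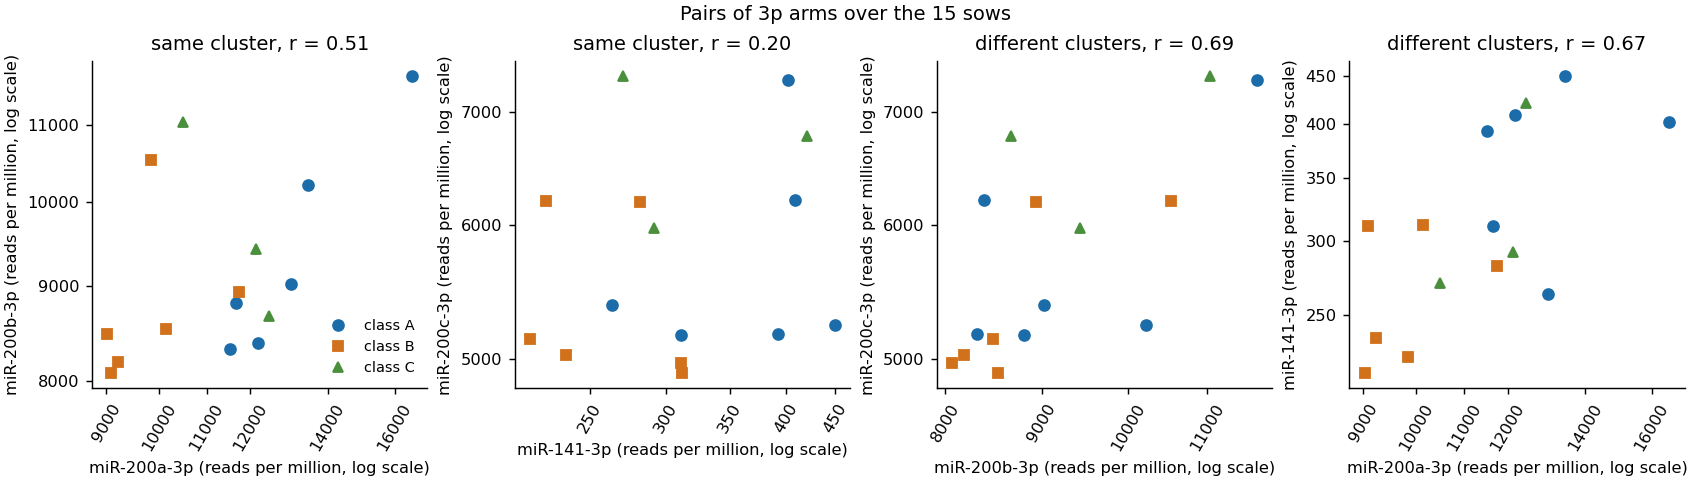
RPM of pairs of 3p arms on log axes, 1 point per sow, with symbol and colour giving the length class. The 2 panels on the left show pairs within a cluster (r = 0.51 and 0.20) and the 2 on the right the pairs that differ by 1 base of the first 20 and lie in different clusters (r = 0.69 and 0.67).

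A ratio between 2 members of the same sow does not depend on the total by which both are scaled. The ratio of miR-200b-3p to miR-429-3p, its cluster mate with the same seed, was 13.8, 15.8, 16.2 and 15.2 in the control sows and 17.8, 19.8, 20.3 and 17.8 at 1000 µg. It was 14.95, 14.5 and 18.1 at 0.05 µg and 13.5, 17.6, 14.5 and 16.9 at 10 µg. The 1000 µg group lay above the control group, and of the 6 ratios formed between members this was 1 that did not overlap, singled out after its values were seen and not tested. It reuses the miR-200b-3p values given above, over miR-429-3p with a log2 difference of 0.00 at 1000 µg, so it is no separate result. The ratio of miR-200b-3p to miR-200c-3p was 1.56 ± 0.193 in control and 1.60 ± 0.082 at 1000 µg (SD, n = 4 each), with overlapping groups. Of the family's 3p reads, 44.1% ± 1.25 carried the seed AACACTG in control, 43.7% ± 3.73 at 0.05 µg, 43.5% ± 3.06 at 10 µg and 40.8% ± 5.09 at 1000 µg. The control sows lay between 42.8 and 45.3%, while sows 14 and 15 at 1000 µg had 36.2% and 36.7% and sows 12 and 13 46.3% and 43.9%.

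The reads whose pattern over the 15 sows was most like that of each member were mostly from outside the family. The following were named as the 5 highest r among the well-counted groups and are a description. For miR-200a-3p the closest was a read with the seed of miR-96, a microRNA of sensory and other epithelia (r = 0.80, mean 168 RPM), followed by reads with the seeds of miR-15, miR-16 and miR-195 (0.75), miR-181 (0.748), miR-425 (0.74) and miR-17, miR-20, miR-93 and miR-106 (0.704). For miR-200b-3p the closest was a read with the seed of miR-34 and miR-449 (0.742, mean 14.8 RPM). After it came reads of miR-423-5p (0.712), miR-200c-3p (0.689), miR-200b-5p (0.665) and miR-103 and miR-107 (0.66), named by seed outside the family. The closest read lay near the lower limit of 10 RPM and was not the most abundant read with its seed, which averaged 8868 RPM. The microRNAs miR-34 and miR-449 are known from multiciliated cells. The reads closest to the leading members are shown with their seeds in capitals.
Closest to miR-200a-3p: tTTGGCACtagcacatttttgct
Closest to miR-200b-3p: aGGCAGTGtattgttagctggc

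For miR-429-3p the closest reads carried the seeds of miR-17, miR-20, miR-93 and miR-106 (0.841 and 0.769), miR-181 (0.772), miR-425 (0.767) and let-7 (0.751). For miR-141-3p they carried the seeds of miR-25, miR-92 and miR-363 (0.881), miR-29 (0.864) and miR-19 (0.797 and 0.79), with its own 5p arm in the third place (0.839). For miR-200c-3p they were reads with the seeds of miR-204 and miR-211 (0.747), miR-30 (0.743), miR-185 (0.742) and miR-15, miR-16 and miR-195 (0.715), then miR-200b-3p (0.689). Another member stood among the 5 closest reads for miR-200b and miR-200c, each with the other. A name given by seed says that bases 2 to 8 match and nothing of the other bases.

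Reads with the seeds of other epithelial microRNAs, from a list of known seeds outside the family, were set beside the members. Each seed stands for its most abundant tested read, whatever its other bases. For the seed of miR-96 this read, at a mean of 379 RPM, was not the one closest to miR-200a-3p, at 168 RPM. The list had 11 seeds with a tested read, and 0 of 11 were called at any dose (edgeR), with 4, 3 and 5 of 11 higher at 0.05, 10 and 1000 µg and median log2 differences of -0.14, -0.18 and -0.04. Its summed level was 8565 to 19933 RPM in control, 11483 to 12271 at 0.05 µg, 9106 to 19936 at 10 µg and 13989 to 19875 at 1000 µg. Its most abundant reads had the seeds of miR-34 and miR-449, at 10237 ± 4967 RPM in control and 9084 ± 2333 at 1000 µg (SD, n = 4 each), and of miR-375, at 1342 ± 930 and 1900 ± 837. Both varied far more between control sows than miR-200b-3p did.

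Reads with the seeds of microRNAs of the other cell types in the tissue were present at every dose, none called. Here too each seed stands for its most abundant tested read, and the names say nothing of its other bases. The 10 seeds of stroma and smooth muscle summed to 105450 to 149090 RPM in control and 108370 to 194150 at 1000 µg, with miR-143 at 55535 ± 12676 and 64041 ± 37885 and miR-10 at 29986 ± 5981 and 28172 ± 2157. The 2 of endothelium, miR-126-3p and miR-126-5p, summed to 4550 to 6910 in control and 4295 to 8341 at 1000 µg, and the former was at 5350 ± 921 and 5950 ± 1608. The 6 of leukocytes summed to 645 to 1111 and 446 to 710, led by miR-146 at 432 ± 287 and 222 ± 61.4 and miR-150 at 114 ± 21.4 and 114 ± 42.7. The 3 of red cells summed to 1230 to 1526 and 940 to 3815, with miR-451 at 1325 ± 127 and 2235 ± 1109 and miR-144 at 57.7 ± 25.3 and 74.2 ± 57.3. All sums overlapped between these 2 groups. In the edgeR fit the reads of stroma and smooth muscle were higher than control for 9, 5 and 6 of 10 seeds at 0.05, 10 and 1000 µg, with median log2 differences of 0.27, -0.01 and 0.14. Those of red cells were higher for 3 of 3 at each dose, with medians of 0.37, 0.16 and 0.75. Those of leukocytes were higher for 2, 5 and 1 of 6, with medians of -0.31, 0.06 and -0.12, and those of endothelium for 1, 2 and 2 of 2, with medians of 0.06, 0.11 and 0.14. At 0.05 and 10 µg the sums ran from 131840 to 154190 and 110470 to 147120 RPM for stroma and smooth muscle, and from 1476 to 2287 and 1250 to 2272 for red cells. Those for leukocytes ran from 568 to 772 and 522 to 841, and those for endothelium from 5427 to 7519 and 4150 to 7008. The part of these cell types in the levels of the miR-200 family was not tested.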

How the data were processed

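The authors deposited, for each of 16 libraries of porcine endometrial small RNA, every distinct read of 17 to 49 nt with its raw count, and no normalization. The labels' protocols name TRIzol for the extraction and a NEBNext kit for the libraries. The submitters' processing notes name FastQC and, without a role, the builds GRCh37.p5, GRCm38, Sscrofa10.2 and UMD3.1, and the aligner and the adapter trimming are not given in the sources used here. The libraries of the other sows are labelled as separate animals.

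The members and lists were chosen with earlier results of these data known. No microRNA table was used, so each arm is the most abundant first 20 nt that carry its start base, its seed and the bases that set it apart. Levels (RPM) are the 20 to 26 nt reads with those 20 nt per 1000000 reads of 18 to 26 nt. The planned fallback, groups of reads of 18 to 26 nt with the same first 18 nt, was the feature of the test: 26704 groups had at least 30 reads, and 11123 passed edgeR's filterByExpr, with 93.8% of the reads. The 20-nt reads were 92.1 to 99.0% of these groups for the 3p arms, and miR-429-5p, with 26 reads, was not tested. The edgeR 4.0.16 quasi-likelihood fit (R 4.3.3, robust) used all 15 sows and 4 groups, with the 18 to 26 nt total as library size. DESeq2 1.42.0, TMM and size factors, other filters and features, length class as a covariate and sows left out in turn were alternatives. The fit was tested on simulated data. Correlations used 100000 permutations (two-sided, SciPy 1.17.1) of log2(RPM + 1), and RNAduplex was version 2.7.2.

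Length classes used limits of 8% of reads of 17 to 19 nt and 5% of reads of 40 nt or more. Named were all members, the 5 groups with the highest r to each 3p arm among those with a listed seed and a mean of at least 10 RPM, and the 2 most abundant reads of each marker list. Other microRNAs are named by seed alone, from 85 listed seeds.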

Additional observations from a re-analysis of the deposited data

Results flagged for a closer look

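One value stood apart from its group. In the 10 µg group, sow 9 had 10215 RPM of miR-200b-3p, while the other 3 sows of that group had 8074 to 8318, so that 0.886 of the whole range of the group lay in the gap to sow 9. Of 33 groups of 4 sows examined over the 10 arms and their 3p sum, this was the 1 that passed Dixon's limit, which chance passes in about 1 of 20 groups. The library of sow 9 is of length class A.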

How the results depend on the processing

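No member was called in any of 729 alternative values, with a lowest adjusted p of 0.722 (edgeR or DESeq2). No TMM, size-factor or all-read scale moved the median log2 difference of all groups at a dose to more than 0.099 from 0. Of the 729 values 58 changed sign. The log2 differences of miR-200b-3p, miR-200b-5p, miR-200c-3p and miR-200a-5p at 1000 µg stayed above 0 throughout. Those of miR-141-3p (-0.301 to -0.0169), miR-141-5p (-0.447 to -0.128) and miR-200c-5p (-0.413 to -0.0402) stayed below 0 throughout. The scale by the reads with a listed seed, the groups with 30 reads unfiltered and the 20-nt groups were added after seeing the data. Not run were a minimum of 1 read and the scale by reads assigned to a microRNA table. No paired analysis was possible because the sows carry no shared replicate numbers.

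Counts of called groups, 0 in all 5 tests, became 1 at 1000 µg with only the 2 groups compared. Leaving out single sows gave 0 to 1 at 10 µg and 0 to 1 for the 3 doses together, the 1 in both without sow 9, and in neither a member.

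At 0.05 µg the log2 difference of miR-200a-3p was -0.0347 with TMM, -0.0234 with DESeq2's factors in edgeR, -0.0234 with DESeq2, -0.0838 over all reads, -0.0127 over listed seeds, -0.00124 with the length class as a covariate, -0.0300 from library 7a alone and -0.0881 to 0.155 without single sows. For miR-200b-3p the values in that order, without the length class, were -0.0326, -0.0223, -0.0223, -0.0728, -0.00943, -0.0181 and -0.0150 to 0.0312. For miR-200c-3p it was -0.0329 over all reads, -0.0159 with the length class, -0.0102 from library 7a and -0.0948 to 0.113 without single sows. Without single sows miR-141-3p ran from -0.441 to 0.0682, miR-429-3p from -0.0930 to 0.0791 and miR-200c-5p from -0.608 to 0.0526.

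At 10 µg miR-200a-3p was at 0.0515 with TMM, 0.0606 with DESeq2's factors, 0.0606 with DESeq2 and 0.0230 over all reads, and miR-429-3p at 0.0822, 0.0917, 0.0914 and 0.0868. Over listed seeds miR-200b-3p was at -0.0450 and miR-200b-5p at -0.00487. Without single sows miR-200b-3p ran from -0.0820 to 0.0386, miR-200b-5p from -0.0459 to 0.0631, miR-429-3p from -0.0769 to 0.0323, miR-141-3p from -0.0647 to 0.211, miR-141-5p from -0.115 to 0.251 and miR-200a-5p from -0.108 to 0.153.

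At 1000 µg miR-429-3p was at -0.00437 with TMM, -0.0293 over listed seeds, -0.00155 with 1-base variants merged, -0.00771 by 20-nt groups and -0.0782 to 0.0776 without single sows. Without single sows miR-200a-3p ran from -0.0754 to 0.194.

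The mean r within clusters was 0.777 with TMM, 0.527 over all reads, 0.308 over listed seeds, 0.591 with dose means subtracted and 0.233 to 0.503 without single sows, and between clusters 0.791 with TMM, 0.336 over listed seeds and 0.365 to 0.537 without single sows. The lowest of both ranges was without sow 12. The r of miR-200b with miR-141 became -0.349 over listed seeds, -0.151 with class means subtracted and -0.122 to 0.232 without single sows, and that of miR-141 with miR-200c -0.074 over listed seeds. The causes were not tested.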
